A study of Oryza sativa with 36 samples.

Results

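The genes described here control how rice seeds break down abscisic acid (ABA) and how they hold or leave dormancy. The list had 5 symbols: ABA8OX1, ABA8OX2 and ABA8OX3, which encode ABA 8′-hydroxylases, the transcription factor gene VP1, and MFT2. Their probe sets were found by symbol or synonym in the array annotation. A probe set was found for 4 of the 5 symbols, out of 17905 genes with a probe set of their own. ABA8OX3 had none in that annotation and was dropped. Each of the 4 genes had 1 probe set, so no other probe set was there to compare with it; the Entrez genes are 9269675 for ABA8OX1, 4345810 for ABA8OX2, 4324314 for VP1 and 4326145 for MFT2. In Affymetrix naming, the suffix s_at of the ABA8OX2 probe set marks probes shared by more than 1 transcript, and whether they read another gene was not tested.

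ABA is the hormone that sets up dormancy while the seed matures and that blocks germination until its level drops after water uptake. Its level falls mainly through hydroxylation by ABA 8′-hydroxylases. VP1 is the cereal relative of Arabidopsis ABI3, a B3-domain factor that acts with ABA to switch on late maturation genes, and MFT2 belongs to the phosphatidylethanolamine-binding proteins, a family whose MFT branch is known for control of seed germination. Downstream of the ABA receptors, clade A PP2C phosphatases hold the SAPK kinases inactive until ABA is bound, and the freed kinases act on bZIP factors that bind the promoters of dehydrin genes such as those of the RAB16 group.

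Embryo and endosperm of rice (Oryza sativa, Nipponbare where the labels name a cultivar) were each profiled at 6 times: untreated dry seed at 0 h, and seed imbibed for 4, 8, 12, 16 and 24 h. Imbibed seed stood in darkness at 30 °C in 450 ml of sterile water, through which air was bubbled at 10 ml per minute. Every one of the 12 groups held 3 Affymetrix rice arrays, 36 in all, and the deposited values are log2 GCRMA signals. No group carried a mutation, a transgene or an added hormone. The growth protocol of embryo samples names the embryonic axis where the tissue label says embryo, and the labels do not say whether endosperm samples kept the aleurone or the pericarp. Whether replicates were separate cultures is not said either, so the p-values cover the spread among these arrays, part of which can be technical.

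The arrays' labels were checked against tissue markers. All 6 endosperm markers tested were higher in endosperm, without overlap, at 0 h and at 24 h, and the embryo marker OSH1 was higher in embryo at both times. At 0 h the embryo arrays still read 8.47 for the glutelin gene GLUA1 and 9.49 for Wx, which reached 3.83 and 5.92 at 24 h. Of 4 markers of aleurone or scutellum, 2 were higher in endosperm and 1 in embryo at 0 h, and 3 were higher in endosperm at 24 h: AMY3A (9.70 against 2.29), GAMYB (10.91 against 8.26) and R1C-Prx (13.36 against 10.45). The other, the alpha-amylase gene AMY1A, had overlapping levels in embryo and endosperm (7.36 and 7.33 at 0 h, 13.44 and 13.40 at 24 h). Both pericarp markers were higher in embryo at both times. The gap between 3′ and 5′ control probes, a sign of RNA integrity, was 1.67 at 0 h and 1.51 at 24 h in embryo, and 2.30 and 3.35 in endosperm. Ribosomal RNA controls went from 14.06 to 10.16 in embryo and from 12.03 to 8.31 in endosperm. The part of these shifts in the results below was not tested, and in whole tissue fewer cells of a type and less RNA per cell cannot be told apart.

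Array medians were 2.80 to 2.93 for embryo against 2.72 to 2.81 for endosperm, and 75th percentiles were 5.21 to 5.77 against 4.12 to 4.53. A difference between tissues therefore depends on how arrays are put on 1 scale. Centring on the 75th percentile moved the median difference of all 57194 rice probe sets, endosperm minus embryo, to 1.10 at 0 h and 1.19 at 24 h, against -0.07 and -0.02 as deposited. The same centring moved the median change from 0 h to 24 h to -0.43 in embryo and -0.37 in endosperm, and centring on the hybridisation spike-ins moved it to 0.36 and 0.18, against -0.05 and -0.03 as deposited. Changes below are relative to the deposited scale. A change was called when limma's adjusted p (Benjamini-Hochberg over all rice probe sets) was below 0.05 and the log2 difference was at least 1 in size. Values after ± are standard errors of the fit unless SD is written, with n = 3 arrays per group.

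ABA8OX1 transcript rose in both tissues within 4 h of imbibition and then declined. On the log2 scale the rise was 1.86 ± 0.24 in embryo (3.62-fold, adjusted p = 4.364e-07) and 1.77 ± 0.24 in endosperm (3.42-fold, adjusted p = 3.523e-06). Embryo arrays, in the order of replicates 1, 4 and 5, read 7.53, 7.29 and 7.37 at 0 h, 9.21, 9.13 and 9.43 at 4 h, and 8.88, 8.72 and 8.51 at 8 h. They then read 7.84, 7.69 and 8.06 at 12 h, 8.03, 7.29 and 7.13 at 16 h, and 7.70, 7.11 and 6.46 at 24 h. Every 4 h and 8 h array of the embryo lay above every 0 h array, whereas the 16 h and 24 h arrays overlapped the dry seed. Endosperm arrays, in the order of replicates 1, 2 and 3, read 6.04, 6.74 and 6.38 at 0 h, 8.18, 8.21 and 8.09 at 4 h, and 7.81, 7.92 and 7.75 at 8 h. Later they read 6.99, 7.22 and 7.36 at 12 h, 6.93, 6.99 and 7.26 at 16 h, and 6.90, 7.50 and 6.85 at 24 h. In contrast to the embryo, no endosperm array from 4 h on fell into the range of the dry endosperm.

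The rise of ABA8OX1 was still called at 8 h, at 1.31 in embryo (adjusted p = 5.129e-05) and 1.44 in endosperm (adjusted p = 2.617e-05), though the embryo value was 0.91 and not called after 75th percentile centring. Within single harvest days the 4 h rise was 1.67 to 1.80 in embryo over 2 days and 1.47 to 2.13 in endosperm over 3 days. Values within a harvest day, here and below, mostly compare single arrays and carry no test. From 12 h on no difference from 0 h was called: embryo values were 0.47, 0.08 and -0.31 at 12, 16 and 24 h, and endosperm values were 0.81, 0.67 and 0.70. The decline from the 4 h peak to 24 h was called in both, at -2.16 ± 0.24 in embryo (adjusted p = 1.639e-08) and -1.07 ± 0.24 in endosperm (adjusted p = 0.0008109). By level, the embryo times ran 4, 8, 12, 16, 0 and 24 h from high to low, and the 95% intervals of the neighbouring steps from 12 h downward all held 0. Endosperm times ran 4, 8, 12, 24, 16 and 0 h. There the steps from 4 to 8 h, 12 to 24 h and 24 to 16 h had intervals that held 0, and the lowest step, 16 h over 0 h, was 0.67 (95% interval 0.18 to 1.16).

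ABA8OX2, the second hydroxylase gene, went the other way. It was highest in dry seed and fell through imbibition, by 3.64 ± 0.21 on the log2 scale in embryo at 24 h (12.5-fold, adjusted p = 5.919e-14) and by 2.22 ± 0.21 in endosperm (4.67-fold, adjusted p = 2.96e-09). Embryo arrays read 7.31, 7.75 and 7.62 at 0 h, 6.05, 6.49 and 6.47 at 4 h, and 5.60, 5.49 and 5.73 at 8 h. They went on to 4.86, 4.95 and 5.41 at 12 h, 4.83, 4.998 and 5.16 at 16 h, and 3.27, 4.17 and 4.32 at 24 h. The 0 h, 4 h and 8 h arrays formed separate steps, the 12 h and 16 h arrays overlapped, and all 3 arrays at 24 h lay below all others. Endosperm arrays read 6.04, 5.71 and 5.87 at 0 h, 5.42, 5.31 and 5.32 at 4 h, and 5.04, 5.24 and 4.71 at 8 h. Later values were 3.79, 4.38 and 4.58 at 12 h, 4.17, 4.17 and 4.13 at 16 h, and 3.47, 3.68 and 3.81 at 24 h. No endosperm array from 4 h on reached the lowest dry one, and the 12 h arrays overlapped those at 16 h and at 24 h.

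The fall of ABA8OX2 was called at every later time in embryo, at -1.23, -1.95, -2.49, -2.56 and -3.64 for 4, 8, 12, 16 and 24 h. Endosperm values were -0.53 and -0.88 at 4 and 8 h, which were not called, and -1.63, -1.72 and -2.22 at 12, 16 and 24 h, which were. Centring on the spike-ins took the 4 h value in embryo to -0.86 and ended its call. Within harvest days the 24 h change in endosperm was -2.25 to -2.19 over 2 days. Each of these days compared 1 array with 1 array of another replicate number. No day held embryo at both 0 h and 24 h; with harvest day as a block the embryo change was -3.84 (adjusted p = 4.638e-11). The embryo step from 16 h to 24 h was called as well, at -1.08 ± 0.21 (adjusted p = 0.001254), though not without embryo replicate 1 (-0.84) or after quantile normalization over all arrays (-0.81). Its counterpart in endosperm was -0.50 (adjusted p = 0.3086). At 24 h the embryo mean of 3.92 still lay above 65.0% of rice probe sets. In both tissues the order of levels followed time, 0 h highest and 24 h lowest. The step from 12 h to 16 h in each tissue, and that from 4 h to 8 h in endosperm, had 95% intervals that held 0.

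**Figure D1:**
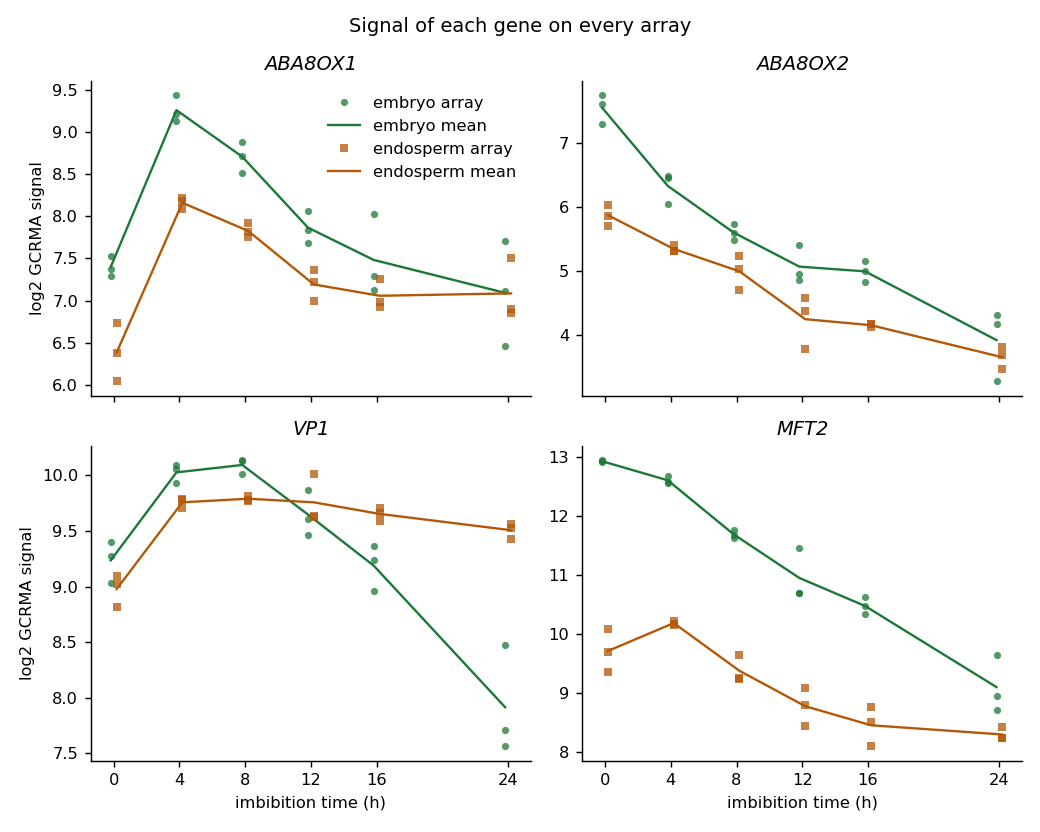
Log2 GCRMA signal (vertical axes, each panel with its own range) against imbibition time in hours for the 4 genes. Points are single arrays, 3 per tissue and time, and lines join group means; ABA8OX1 peaks at 4 h in both tissues, ABA8OX2 and MFT2 decline, and VP1 in embryo is at 7.91 at 24 h and in endosperm at 9.51.

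VP1 fell in embryo, by 1.32 ± 0.16 on the log2 scale at 24 h against 0 h (2.50-fold, adjusted p = 4.017e-08). No change from 0 h was called for it in endosperm, where the 24 h value was 0.53 ± 0.16 (adjusted p = 0.008892). Embryo arrays read 9.03, 9.27 and 9.40 at 0 h, 10.10, 10.05 and 9.93 at 4 h, and 10.14, 10.13 and 10.01 at 8 h. They read 9.47, 9.61 and 9.87 at 12 h, 8.96, 9.24 and 9.37 at 16 h, and 7.56, 7.71 and 8.47 at 24 h. Both early times lay above the dry embryo without overlap, 16 h overlapped it, and 24 h lay wholly below it, with replicate 5 the highest of the 3. Endosperm arrays read 8.82, 9.09 and 9.02 at 0 h, 9.79, 9.78 and 9.70 at 4 h, and 9.77, 9.78 and 9.82 at 8 h. Then came 10.01, 9.63 and 9.63 at 12 h, 9.71, 9.59 and 9.66 at 16 h, and 9.43, 9.52 and 9.56 at 24 h. Every imbibed endosperm array lay above every dry one.

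The early gain of VP1 was below the minimum of 1 log2 unit and so was not called: 0.79 ± 0.16 in embryo (adjusted p = 0.0001753) and 0.78 ± 0.16 in endosperm (adjusted p = 0.0006522) at 4 h, and 0.86 and 0.81 at 8 h. Centring on the spike-ins raised the 4 h values to 1.16 and 1.09, which were called. Within harvest days the 4 h values were 0.72 to 1.07 in embryo over 2 days and 0.68 to 0.97 in endosperm over 3 days. In embryo the change from 8 h to 16 h was -0.91 ± 0.16 (adjusted p = 6.308e-05), below the minimum for a call. Over the next 8 h, from 16 h to 24 h, it was -1.27 ± 0.16 (adjusted p = 1.748e-06), which was called. Within 3 harvest days that last step was -1.53 to -0.90. With harvest day as a block the embryo change from 0 h to 24 h was -1.45, and after spike-in centring it was -0.92 and no longer called. Endosperm differences from 0 h were 0.78, 0.68 and 0.53 at 12, 16 and 24 h. Embryo times ran 8, 4, 12, 0, 16 and 24 h from high to low, and the 8 to 4 h and 0 to 16 h steps had 95% intervals that held 0. Endosperm times ran 8, 4, 12, 16, 24 and 0 h, and of its 5 steps the one above the dry seed had an interval clear of 0, at 0.53 (0.21 to 0.85).

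MFT2 was among the brightest probe sets of the dry embryo, above 99.8% of rice probe sets, and had the largest measured fall of the 4 genes there. The fall of ABA8OX2 was close to it, at 3.64 ± 0.21, and the gap between the 2 was not tested. The embryo mean went from 12.93 ± 0.02 (SD) at 0 h to 9.10 ± 0.48 (SD) at 24 h, a fall by 3.83 ± 0.22 (14.2-fold, adjusted p = 2.68e-14). Embryo arrays read 12.94, 12.91 and 12.95 at 0 h, 12.56, 12.68 and 12.58 at 4 h, and 11.77, 11.62 and 11.69 at 8 h. They read 10.69, 10.70 and 11.46 at 12 h, 10.33, 10.63 and 10.47 at 16 h, and 8.71, 8.95 and 9.64 at 24 h. No array of one time overlapped an array of another time in the embryo. Endosperm arrays read 9.70, 9.35 and 10.09 at 0 h, 10.15, 10.18 and 10.23 at 4 h, and 9.24, 9.65 and 9.25 at 8 h. Later they read 8.44, 8.80 and 9.09 at 12 h, 8.09, 8.76 and 8.51 at 16 h, and 8.42, 8.24 and 8.23 at 24 h. The 4 h endosperm arrays lay just above the dry ones, the 8 h arrays overlapped the dry ones, and the later arrays lay below the dry ones, those of 16 h overlapping 12 h and 24 h.

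In embryo the fall of MFT2 was called from 8 h on, at -1.24, -1.98, -2.45 and -3.83 for 8, 12, 16 and 24 h, and the 4 h value was -0.32 (adjusted p = 0.2123). The step from 16 h to 24 h, which spans 8 h where the others span 4 h, was the largest between neighbouring times, at -1.38 ± 0.22 (adjusted p = 8.015e-05; -1.68 to -0.83 within 3 harvest days). In endosperm the values were 0.47, -0.34, -0.94, -1.26 and -1.42 in time order, called at 16 h and at 24 h (adjusted p = 6.345e-06 at 24 h). The endosperm change at 24 h was -1.85 and -0.93 within the 2 harvest days that held both times. With harvest day as a block the 24 h change was -4.14 in embryo and -1.51 in endosperm. The order of levels in embryo followed time, and the one neighbouring step whose 95% interval held 0 was that from 0 h to 4 h. No neighbouring step in embryo but that from 16 h to 24 h was called, and that from 12 h to 16 h had an adjusted p of 0.4971. Endosperm ran 4, 0, 8, 12, 16 and 24 h, with intervals that held 0 for the steps 0 to 8 h, 12 to 16 h and 16 to 24 h.

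**Figure D2:**
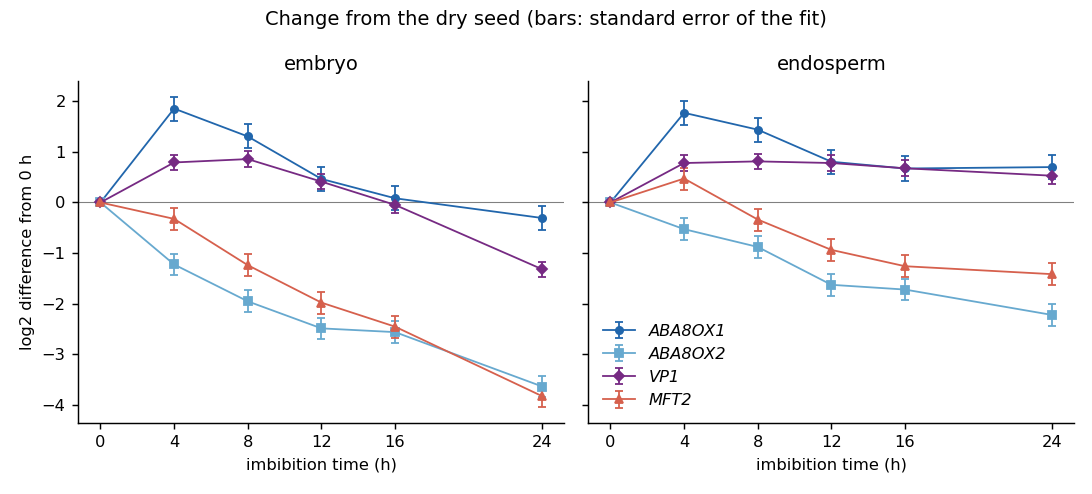
Log2 difference from the dry seed (vertical axis) against imbibition time in hours, embryo on the left and endosperm on the right; bars are standard errors of the fit, n = 3 arrays per group. In embryo the 24 h values are -3.83 for MFT2, -3.64 for ABA8OX2, -1.32 for VP1 and -0.31 for ABA8OX1, and in endosperm -1.42, -2.22, 0.53 and 0.70.

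Counts of called members have to be read against how often any probe set was called. In embryo the numbers of called members, from 4 h to 24 h in time order, were 2, 3, 2, 2 and 3 of 4, against 11.4%, 16.7%, 18.9%, 20.4% and 22.1% of all rice probe sets in either direction. In endosperm they were 1, 1, 1, 2 and 2 of 4, against 3.53%, 8.15%, 10.2%, 10.4% and 11.9%. Among probe sets above the median level, to which all 4 members belong, 42.7% were called in embryo and 23.7% in endosperm at 24 h. With 4 genes, such counts describe the members and say little about whether they stand apart. The embryo step from 16 h to 24 h called 3 of 4 members, all lower, against 0.631% of all probe sets called lower. In either direction it called 2.13% of all probe sets and 3.73% of those above the median level. This step spans 8 h where the others span 4 h, and the ABA8OX2 call in it was lost without embryo replicate 1. The embryo steps 4 to 8 h, 8 to 12 h and 12 to 16 h called 0 of 4, against 3.38%, 1.64% and 0.0594% of all probe sets called lower. The endosperm step from 16 h to 24 h called 0 of 4 as well, against 0.191% called lower. An F test over all times, with a range of group means of at least 1, called 4 of 4 members in embryo (29.0% of all probe sets) and 3 of 4 in endosperm (17.2%). VP1 in endosperm had a range of 0.81 (adjusted p = 0.0005591).

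The organ comparison asked whether the genes changed differently in embryo and endosperm. This was tested as the change from 0 h in endosperm minus the change from 0 h in embryo, which does not depend on a constant offset between the tissues. At 24 h all 4 differences were positive and called, against 15.4% of all probe sets and 29.6% of those above the median level: endosperm lost less, or gained more, than embryo. MFT2 differed by 2.41 ± 0.31 (adjusted p = 5.129e-07), VP1 by 1.85 ± 0.22 (adjusted p = 1.662e-07) and ABA8OX2 by 1.41 ± 0.30 (adjusted p = 0.000567). For ABA8OX1 the difference of 1.01 ± 0.34 (adjusted p = 0.02396) sat at the threshold. It was 0.89 with a harvest day block, 0.82 after spike-in centring and 0.71 without embryo replicate 5, none of which was called; leaving out embryo replicate 4 (1.07) or endosperm replicate 1 (0.93), 2 (0.97) or 3 (1.12) also ended the call. The ABA8OX2 difference lost its call after spike-in centring, at 1.22, and after quantile normalization over all arrays, at 0.85. Its 24 h means, 3.92 in embryo and 3.65 in endosperm, stood against array medians of 2.82 to 2.83 and 2.73 to 2.75, and endosperm had started 1.68 lower; the part of this in the difference was not tested.

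Differences before 24 h were called for MFT2 and ABA8OX2. The difference for MFT2 was 0.80, 0.90, 1.04 and 1.19 at 4, 8, 12 and 16 h, called at the last 2. For ABA8OX2 it was 0.70, 1.08, 0.86 and 0.84, called at 8 h. Each of these calls was lost without endosperm replicate 2, when MFT2 was at 0.85 at 12 h and 0.86 at 16 h and ABA8OX2 at 0.87 at 8 h. The 12 h call of MFT2 was also lost without embryo replicate 1 (0.91) or 4 (0.93), and the 8 h call of ABA8OX2 without embryo replicate 4 (0.92). Spike-in centring ended all 3 calls, with MFT2 at 0.51 at 12 h (adjusted p = 0.382) and 0.93 at 16 h (adjusted p = 0.2807) and ABA8OX2 at 1.197 at 8 h (adjusted p = 0.1188). Quantile normalization ended that of ABA8OX2 too, at 0.96. With a harvest day block the values of MFT2 at 8 h (1.07, adjusted p = 0.0106) and ABA8OX2 at 16 h (1.01, adjusted p = 0.02437) became called, and so did MFT2 at 8 h after quantile normalization (1.01). For VP1 the values were -0.01, -0.05, 0.37 and 0.72, none called. At 8, 12 and 16 h, 8.52%, 11.3% and 12.8% of all probe sets were called. For the shared early rise of ABA8OX1 the difference at 4 h was -0.08, with a 95% interval from -0.78 to 0.61, and for VP1 it was -0.01 (-0.46 to 0.44). With 3 arrays per group, any difference within these intervals is compatible with the values, so equal rises are not shown.

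**Figure D3:**
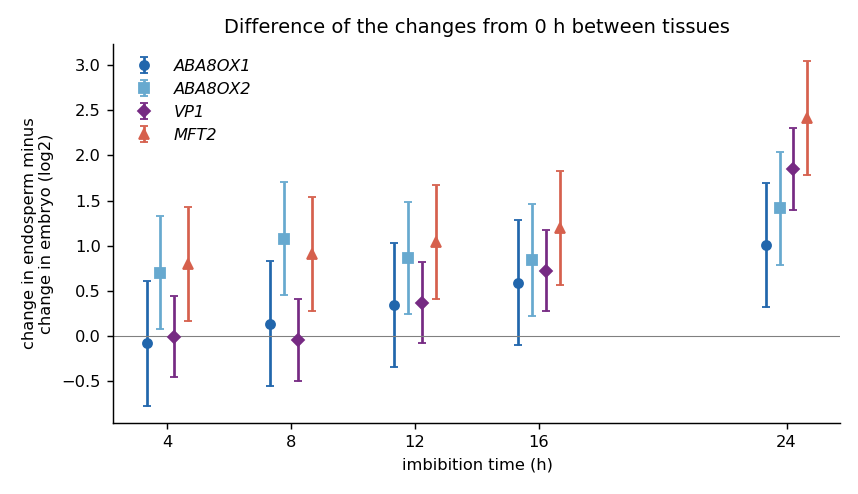
Change from 0 h in endosperm minus change from 0 h in embryo (log2, vertical axis) at each later time in hours; bars are 95% intervals of the fit, and points are set side by side within a time. At 4 h the intervals of ABA8OX1 and VP1 hold 0, and at 24 h all 4 intervals lie above it, from 1.01 for ABA8OX1 to 2.41 for MFT2.

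Levels in the tissues themselves were compared last, because they rest on the scale. Embryo replicates 4 and 5 also shared no harvest day with endosperm, so for them tissue and harvest day cannot be told apart. As deposited, dry endosperm read lower than dry embryo by 3.22 ± 0.22 for MFT2 (9.30-fold, adjusted p = 5.51e-13), by 1.68 ± 0.21 for ABA8OX2 (adjusted p = 1.02e-07) and by 1.01 ± 0.24 for ABA8OX1 (adjusted p = 0.0004811). The call of ABA8OX1 was lost without embryo replicate 1 (-0.95) or endosperm replicate 1 (-0.84). VP1 differed by -0.26 (95% interval -0.58 to 0.06). These were 3 called members of 4, against 25.6% of all probe sets. After 75th percentile centring the 0 h differences were -0.52 for ABA8OX2, 0.15 for ABA8OX1 and 0.91 for VP1, none called, and after quantile normalization VP1 was called higher in endosperm at 1.01. MFT2 at 0 h was called lower in endosperm under each of the 4 scalings plotted. In the 1 harvest day that held both dry tissues its difference was -3.24, with -1.27 for ABA8OX2, -1.49 for ABA8OX1 and -0.21 for VP1.

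At 24 h, 1 of 4 members was called, against 25.5% of all probe sets. VP1 read higher in endosperm by 1.59 ± 0.16 (3.02-fold, adjusted p = 7.65e-10; 1.87 in the 1 harvest day with both tissues), and kept that direction and call under the 4 scalings. The other differences at 24 h were -0.80 for MFT2, -0.27 for ABA8OX2 and -0.01 for ABA8OX1. Each of these 3 turned positive under 75th percentile centring, to 0.41, 0.94 and 1.21, and under quantile normalization, to 0.39, 0.55 and 1.28. ABA8OX1 at 24 h was called higher in endosperm under both (adjusted p = 2.288e-05 and 6.066e-05). The MFT2 difference thus narrowed between 0 h and 24 h, while that of VP1 opened.

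**Figure D4:**
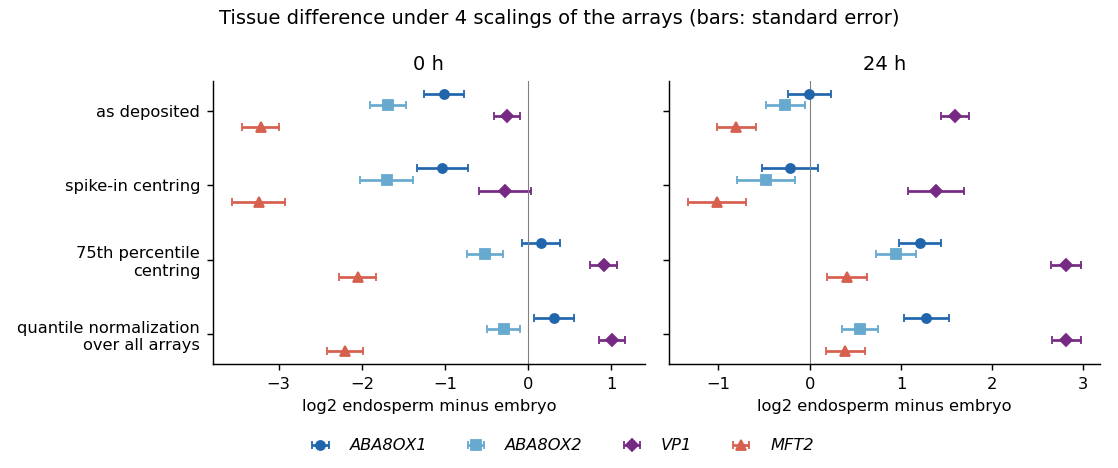
Log2 difference endosperm minus embryo (horizontal axis) at 0 h and 24 h under 4 scalings of the arrays; bars are standard errors, n = 3 arrays per group. MFT2 at 0 h stays left of 0 and VP1 at 24 h stays right of it in all 4 rows, whereas ABA8OX1 moves from -1.01 to 0.15 at 0 h with 75th percentile centring.

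The other genes of the pathway were taken from lists of ABA synthesis, reception, signalling and target genes, of which 34 had a probe set. Many written symbols, which include alternative names, matched no gene: 1 gene with a probe set came from 15 symbols for ABA synthesis, 1 from 26 for receptors, 7 from 14 for PP2C genes, 10 from 10 for SAPK genes, 4 from 23 for transcription factors, 3 from 15 for the MFT and related group and 8 from 15 for targets. At 24 h in embryo, 22 of the 34 fell and 1 rose, with a median change of -2.17 against -0.05 over all probe sets, of which 10.1% fell and 12.0% rose. In endosperm 16 fell and 1 rose, with a median of -0.83 against -0.03 over all probe sets, of which 4.57% fell and 7.33% rose. Among probe sets above the median level, 42.7% were called in embryo and 23.7% in endosperm, in either direction. The lists were chosen with earlier results of these data known. The ABA synthesis gene ZEP, for zeaxanthin epoxidase, fell by 2.26 ± 0.21 in embryo (adjusted p = 4.195e-10) and by 1.33 ± 0.21 in endosperm (adjusted p = 8.404e-06). Of the PP2C phosphatases, which restrain ABA signalling, 5 of 7 fell in embryo and 3 of 7 in endosperm. PP2C68 fell by 5.30 in embryo and fell by 2.66 in endosperm. For PP2C08 the changes were -5.09 and -1.92. Of the 10 SAPK kinases, which carry the ABA signal, 4 fell and 1 rose in each tissue. The changes in embryo and endosperm were -4.46 and -2.39 for SAPK3 and -4.24 and -3.10 for SAPK9. In contrast, SAPK7 rose by 1.43 ± 0.27 in embryo (adjusted p = 5.886e-05) and by 3.88 ± 0.27 in endosperm (adjusted p = 8.405e-12). The SAPK9 probe set has the suffix s_at too, and whether it reads another gene was not tested.

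Among genes for seed and ABA transcription factors, VP1 left out, 3 of 4 fell in embryo and 2 of 4 in endosperm. LFL1, a B3-domain factor gene, fell by 2.49 in embryo and 1.46 in endosperm, and ABF2, a bZIP factor gene, by 1.35 and 1.63, the first not called after spike-in centring (-0.94). All 8 VP1 and ABA target genes fell in embryo, with a median of -4.96, and 6 of 8 in endosperm, with a median of -3.20. RAB16C fell by 7.52 ± 0.43 in embryo (from 13.59 to 6.07) and by 4.71 ± 0.43 in endosperm (from 12.43 to 7.72). RAB16D fell by 5.90 and 5.41. The RAB16 genes are related neighbours, and whether their probe sets share signal was not tested. RAB25, another gene of this list, fell by 6.68 in embryo, from 13.96 to 7.28. In endosperm it went from 13.58 to 12.26, a fall by 1.32 ± 0.34 (adjusted p = 0.003435) that was not called without endosperm replicate 1, at -1.17, or after quantile normalization, at -0.96. MFT1, the relative of MFT2, read 5.06 in dry embryo and 9.40 in dry endosperm. It fell by 1.52 ± 0.30 in embryo by 24 h (adjusted p = 0.0001345), and its endosperm change was -0.70 (adjusted p = 0.06941).

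A lower change in embryo than in endosperm was called for many of these genes too. For the difference of changes at 24 h, 18 of 34 genes were called positive and none negative, with a median of 1.04 against 0.02 over all probe sets, of which 7.69% were called positive and 7.69% negative. Among probe sets above the median level, 29.6% were called in either direction. On the deposited scale, 21 of the 34 were called lower in dry endosperm than in dry embryo, and 1 higher. Of all probe sets, 23.2% were called lower there and 2.37% higher. The part of this lower start in the differences was not tested. The difference of changes was called for 5 of 7 PP2C genes, 5 of 10 SAPK genes and 6 of 8 target genes. Beside them, ABA8OX1 had no called change at 24 h in either tissue, and VP1 had none in endosperm.

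**Figure D5:**
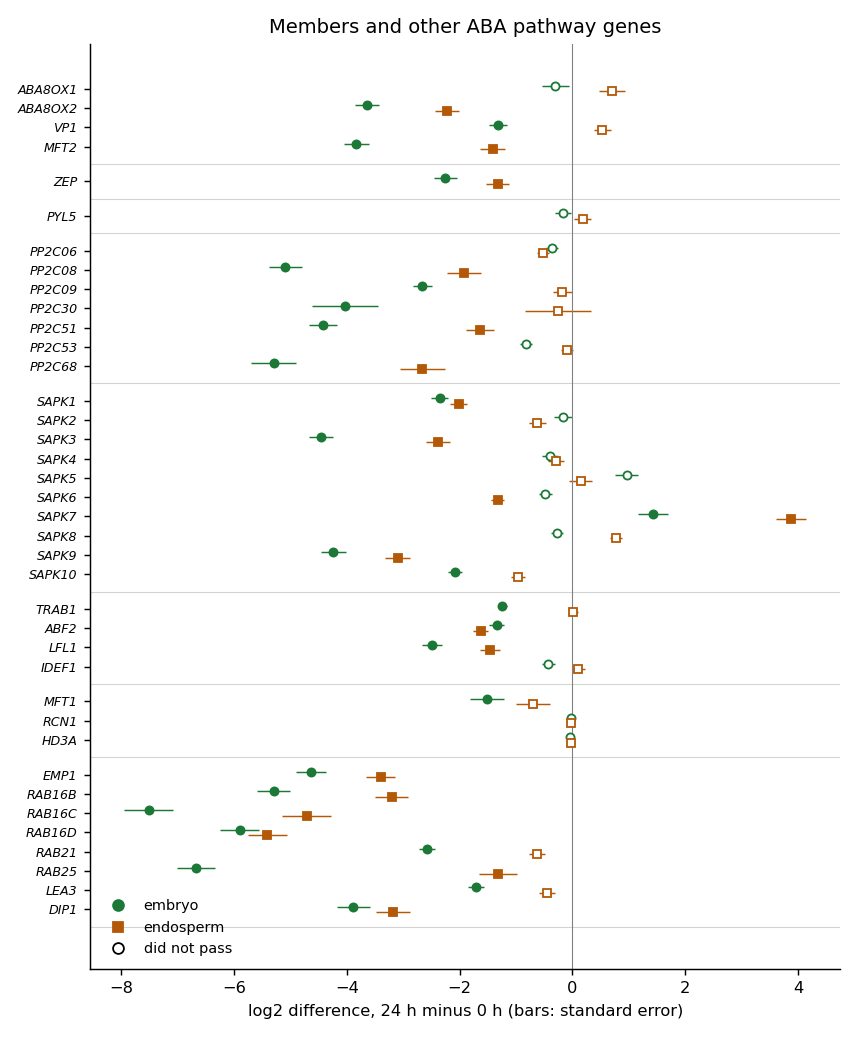
Log2 difference, 24 h minus 0 h (horizontal axis), for the 4 members (top block) and the 34 other pathway genes in blocks by list, in order synthesis, receptor, PP2C, SAPK, transcription factors, the MFT and related group, and target genes. Filled symbols were called and open ones were not; bars are standard errors. Most filled symbols lie left of 0, and SAPK7 lies right of it, at 1.43 in embryo and 3.88 in endosperm.

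The courses of the members were compared with each other and with other named genes by Pearson's r over the 12 group means, after each tissue's own mean had been removed. These are descriptions over points that share arrays. ABA8OX2 and MFT2 were alike (r = 0.94; 0.96 over the 6 embryo means and 0.91 over the 6 endosperm means), and so were ABA8OX1 and VP1 (0.80; 0.83 and 0.82). The 2 hydroxylase genes had r = 0.22. Among 1668 named genes, the courses most like ABA8OX1 were those of BZIP50 (0.97), CIPK26 (0.96) and ABCG36 (0.96). Closest to ABA8OX2 were ZIP3 (0.99), BGLU14 (0.98) and OsC3H40 (0.98). VP1 had lower best values, for MSRB1 (0.91), HAP3F (0.88) and NPR4 (0.88). MFT2 was closest to OsPP2C59 (0.98), PDHE1-A (0.98) and the target gene RAB16C (0.98). Like VP1, MSRB1 was lower in embryo at 24 h than at 0 h, by -2.43, with 0.43 in endosperm. OsPP2C59 shared the shape of MFT2 at a larger size, with -8.05 in embryo and -3.77 in endosperm.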

How the data were processed

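Per the labels' protocols, biotin-labelled amplified RNA from 36 samples went onto rice arrays of Affymetrix. The values deposited are log2 signals that the authors made with GCRMA, per the submitters' processing notes (version not stated there), and no further normalization was applied. Of 57381 probe sets, 123 controls and 64 reporters were left out, leaving 57194. Genes were named from the array annotation and the RefSeq gene table of assembly ASM3414082v1, used for names alone: 22436 probe sets had 1 gene, 95 several and 34663 none. Each gene was read from its brightest probe set.

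A mean for each of 12 groups was fitted to all arrays with limma 3.58.1 in R 4.3.3, with empirical Bayes moderation and Benjamini-Hochberg adjustment over all rice probe sets within a contrast. All adjusted p-values are limma's. The fit was tested on simulated data. The text names the members, up to 2 called genes per list, direction and tissue with the largest 24 h change, and the 3 named genes most like each member with a range of at least 1. Members and lists were chosen with earlier results of these data known. Each tissue was harvested over 5 days, and the small number of arrays limits precision. Embryo replicates 4 and 5 were harvested on later days of the month than every endosperm array. Only embryo replicate 1 shared harvest days with endosperm. For the other embryo arrays, tissue and harvest day cannot be told apart. Alternatives were blocks for replicate number or harvest day, trend and robust moderation, 3 scalings, no minimum difference, probe sets above the median level, arrays of 1 tissue, and leaving out each replicate. Tables and figures used Python 3.11.15, pandas 2.3.3, numpy 2.4.6 and matplotlib 3.10.9.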

Additional observations from a re-analysis of the deposited data

Results flagged for a closer look

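Tests of the change from 0 h in endosperm minus that in embryo picked out 7 results, in which the change differed between the tissues. At 24 h the differences were 1.01 for ABA8OX1, 1.41 for ABA8OX2, 1.85 for VP1 and 2.41 for MFT2. Earlier ones were 1.08 for ABA8OX2 at 8 h, and 1.04 and 1.19 for MFT2 at 12 h and 16 h. With 3 arrays per group, no group was large enough for the check on a single array far from the others.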

How the results depend on the processing

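Over 106 results, 1436 values were recomputed, of which 1280 counted as unchanged. For refits this meant the same direction and side of the threshold. Values within a harvest day had no test and counted as unchanged when near the main value, as did counts of pathway genes. Some settings, such as probe sets above the median level or arrays of 1 tissue, leave the difference itself as it was. After 75th percentile centring, differences endosperm minus embryo at 0 h were 0.15 for ABA8OX1, -0.52 for ABA8OX2 and 0.91 for VP1, and at 24 h 1.21 for ABA8OX1, 0.94 for ABA8OX2 and 0.41 for MFT2. After quantile normalization they were 0.31, -0.30 and 1.01 at 0 h and 1.28, 0.55 and 0.39 at 24 h. Values near 0 also turned: ABA8OX1 in embryo at 16 h was -0.31, and differences of changes were 0.016 for ABA8OX1 at 4 h, 0.0885 for VP1 at 4 h and 0.036 for VP1 at 8 h under 75th percentile centring. VP1 in embryo at 16 h was 0.012 after quantile normalization, which also took the 24 h differences of changes to 0.97 for ABA8OX1 and 0.85 for ABA8OX2. Spike-in centring gave 0.10 for ABA8OX1 in embryo at 24 h, -0.86 for ABA8OX2 and 0.044 for MFT2 in embryo at 4 h. For VP1 it gave 1.16 in embryo and 1.09 in endosperm at 4 h, 0.41 in embryo at 16 h and -0.92 at 24 h. Under it the differences of changes were -0.19 for ABA8OX1 and -0.16 for VP1 at 12 h, 0.0763 for VP1 at 8 h, 1.197 for ABA8OX2 at 8 h, 0.51 and 0.93 for MFT2 at 12 h and 16 h, and 0.82 for ABA8OX1 and 1.22 for ABA8OX2 at 24 h, and the tissue difference of MFT2 at 24 h was -1.01. With no minimum difference, 19 results gained a call, among them ABA8OX1 in endosperm at 24 h (0.70), VP1 at 4 h (0.79 in embryo, 0.78 in endosperm) and in endosperm at 24 h (0.53), and MFT2 between tissues at 24 h (-0.80). The harvest day block gave differences of changes of 0.89 for ABA8OX1 at 24 h, which lost its call, and of 1.07 for MFT2 at 8 h and 1.01 for ABA8OX2 at 16 h, which gained one.

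Within single harvest days in endosperm, ABA8OX1 changed by 2.13 and 1.47 at 4 h and by 0.16 and 1.13 at 24 h, MFT2 by 0.83 and 0.14 at 4 h and by -0.93 and -1.85 at 24 h, and VP1 by 0.97 at 4 h (1.07 in embryo). Tissue differences within a day were -1.49 for ABA8OX1 and -1.27 for ABA8OX2 at 0 h, and -0.80, 0.19, 1.87 and -0.29 for ABA8OX1, ABA8OX2, VP1 and MFT2 at 24 h. The number of pathway genes that rose was 2 in embryo with no minimum difference, with the harvest day block or with spike-in centring, and 2 in endosperm with no minimum difference.

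Leaving out 1 replicate moved ABA8OX1 between -0.12 and 0.24 in embryo at 16 h, its tissue difference between -1.19 and -0.84 at 0 h and between -0.32 and 0.30 at 24 h, and its difference of changes between -0.26 and 0.066 at 4 h, between -0.029 and 0.27 at 8 h and between 0.71 and 1.25 at 24 h. The last lost its call in 5 of 6 cases. For VP1 the difference of changes ranged from -0.14 to 0.13 at 4 h and from -0.17 to 0.077 at 8 h. Pathway genes that rose in embryo numbered 1 to 2. The ABA8OX2 step from 16 h to 24 h in embryo was -0.84 without embryo replicate 1 and not called. The cause of these shifts was not tested.

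Deviations of same-numbered arrays from their group means had r from -0.02 to 0.05 between 0 h and 24 h in embryo and from -0.049 to -0.002 in endosperm. All 3 pairs had r over 0.1 in 3 of 15 pairs of times in embryo (8 and 12 h, 8 and 24 h, and 16 and 24 h) and in 1 of 15 in endosperm (0 and 4 h). Same-numbered embryo arrays share a harvest day at 8 and 12 h and at 16 and 24 h, but not at 8 and 24 h. They also share it at 4 and 8 h and at 4 and 12 h, where 2 and 1 of the 3 pairs were over 0.1. The median r over all same-numbered pairs was 0.112 in embryo and 0.057 in endosperm, against -0.064 and -0.019 for different numbers. The numbers thus pair arrays at some times and not for 0 h against 24 h. With the replicate number as a block, ABA8OX2 between tissues at 24 h was 0.016, and no call of a member changed. Each member has 1 probe set, so no mean over probe sets was run. Whether background signal limited the measured fall of ABA8OX2 was not tested.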

Other observations

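Some ABA signalling genes outside the naming rule were chosen after their values were seen. Of these, PYL5 and SAPK5 rose at 4 h as ABA8OX1 did. No other of the 34 listed pathway genes had a called rise at 4 h. A called fall at 4 h was found for 6 of the 34 in embryo and 1 in endosperm. Across the whole array, rises made up 7.12% in embryo and 3.27% in endosperm, and falls 4.24% and 0.261%. The 2 rises therefore do not show an early rise of the pathway. PYL5, which encodes an ABA receptor, rose by 1.55 ± 0.14 in embryo (adjusted p = 1.759e-09) and by 1.42 ± 0.14 in endosperm (adjusted p = 3.527e-08), and its 24 h values were -0.17 and 0.18. The kinase gene SAPK5 rose by 1.73 ± 0.21 in embryo (adjusted p = 1.569e-07) and by 2.34 ± 0.21 in endosperm (adjusted p = 3.819e-09) at 4 h, and its 24 h values were 0.96 and 0.15, neither called. TRAB1, a bZIP factor gene known in rice for binding VP1, fell by 1.25 ± 0.08 in embryo at 24 h (adjusted p = 1.605e-13), and its endosperm value was 0.02 (adjusted p = 0.8826).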
